A study of Caenorhabditis elegans with 2 samples.

Results

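The 129 genes of biotype snRNA outside the mitochondrial genome were taken from the Ensembl annotation of the Caenorhabditis elegans genome build WBcel235 (ce11), which holds 46926 genes in all, 46890 of them nuclear. For each gene, the strongest deposited peak summit within 500 bp was looked up in a chromatin immunoprecipitation and sequencing (ChIP-seq) study of MED-1, a GATA-type transcription factor that acts early in the cells that form mesoderm and gut. The animals were whole hermaphrodite embryos at the midembryonic stage, of strain OP391. Both samples, biological replicates 1 and 2 of a single group, carry the unc-119(ed3) allele on chromosome III and the transgene wgIs391. The transgene holds med-1 with TY1, EGFP and FLAG tags at the C-terminus, and an unc-119(+) copy as the rescuing marker. The labels do not say that the animals' own med-1 gene is absent. Chromatin was precipitated with an antibody to GFP. The whole embryo was used, so peaks cannot be assigned to a cell type, and there is no second group to compare with. A control ChIP for GFP or for another factor was not analysed here.

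Small nuclear RNAs (snRNAs) build the spliceosome, which removes introns from pre-mRNA. In animals their genes are short, carry a proximal sequence element before the transcribed part that binds the SNAP complex, and are read by RNA polymerase II, apart from the U6 genes, which also have a TATA box and are read by RNA polymerase III. Nematodes have further RNAs of this class. SL1 and SL2 RNAs donate the spliced leader that is joined to the front of mRNAs in trans-splicing, SL2 mainly to mRNAs from downstream genes of operons. SmY RNAs bind Sm proteins and are linked to trans-splicing.

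The 129 genes fell into 12 SL1 RNA genes, 18 SL2 RNA genes and 10 SmY RNA genes by their names. Neither annotation used here gives the remaining genes a U number, so each was grouped with any gene of at least 80% identical sequence. Members of a family can thus be linked through other members. Each family was named after its member with the strongest pooled peak. The W05B2.8 family holds 23 genes of median length 102 nt, 22 of them with the letters ACAGAGA, the stretch with which U6 snRNA pairs with the 5′ splice site. In the Y57G11C.35 family, 18 of 19 genes hold GTAGTA, the stretch of U2 snRNA that pairs with the intron branch site. In the sup-6 family, 12 of 13 genes hold ACTTACCTG, the 5′ splice site recognition letters of U1 snRNA. In the F38E11.10 family, 11 of 12 genes hold GCCTTTTAC, a loop of U5 snRNA that touches the exons. The 5 genes of the C52E4.8 family hold CCAATGAGG, which occurs in U4 snRNA. The other 17 genes joined no family of at least 5 and include mir-1831, a 22 nt gene that lies inside sup-39.

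Sequences before 5 genes with a peak of the optimal set, and before other genes of these kinds for comparison, are printed because the letters they share are counted below. Each line gives the 100 bases before the annotated 5′ end, 5′ to 3′ on the strand of the gene, from the RefSeq genome sequence of WBcel235. In the SL2 RNA genes sls-2.1 (chrII:5844765-5844864, plus strand), sls-2.2 (chrII:5543498-5543597, plus strand) and sls-2.3 (chrII:5544274-5544373, minus strand), capitals mark TTGCCTCGAAA. In sls-2.14 (chrIII:11090524-11090623, minus strand), sls-2.8 (chrIII:12250365-12250464, plus strand) and sup-6 (chrII:12944968-12945067, minus strand), they mark CGGAACCC. In the W05B2.8 family they mark CGGAACCC and CTATATAA for W05B2.8 (chrIII:10989579-10989678, plus strand) and F54D8.7 (chrIII:5080899-5080998, minus strand), and CTATATAA for C28A5.7 (chrIII:4426956-4427055, minus strand) and K09B11.12 (chrIV:13438997-13439096, plus strand).
sls-2.1: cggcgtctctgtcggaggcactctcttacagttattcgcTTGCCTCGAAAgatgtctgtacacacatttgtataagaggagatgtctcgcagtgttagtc
sls-2.2: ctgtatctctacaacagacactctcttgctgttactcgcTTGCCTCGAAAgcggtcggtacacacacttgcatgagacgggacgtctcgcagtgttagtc
sls-2.3: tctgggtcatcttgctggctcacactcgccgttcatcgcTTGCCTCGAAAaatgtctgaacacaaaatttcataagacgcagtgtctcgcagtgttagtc
sls-2.14: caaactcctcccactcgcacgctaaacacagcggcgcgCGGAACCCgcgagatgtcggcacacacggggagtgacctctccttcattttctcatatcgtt
sls-2.8: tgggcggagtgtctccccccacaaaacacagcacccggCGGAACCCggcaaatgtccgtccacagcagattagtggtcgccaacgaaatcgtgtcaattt
sup-6: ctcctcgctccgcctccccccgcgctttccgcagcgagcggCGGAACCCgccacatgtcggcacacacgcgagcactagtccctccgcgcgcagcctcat
W05B2.8: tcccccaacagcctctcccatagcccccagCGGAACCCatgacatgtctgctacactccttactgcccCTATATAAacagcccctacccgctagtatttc
F54D8.7: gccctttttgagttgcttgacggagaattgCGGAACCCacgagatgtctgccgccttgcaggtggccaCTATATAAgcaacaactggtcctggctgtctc
C28A5.7: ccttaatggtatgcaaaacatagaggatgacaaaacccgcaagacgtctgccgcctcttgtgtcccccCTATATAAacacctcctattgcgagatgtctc
K09B11.12: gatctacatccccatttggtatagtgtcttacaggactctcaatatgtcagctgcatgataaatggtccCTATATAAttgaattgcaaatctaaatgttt

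The first 3 genes, sls-2.1, sls-2.2 and sls-2.3, lie within 500 bp of a peak of the optimal set, as do W05B2.8 and F54D8.7. The others are shown as genes of the same kind, or with the same letters, whose peak was weaker or lacking. The whole sls-2.2 gene (chrII:5543598-5543707, plus strand), in lower case, is printed because the summit of its peak lies inside it.
sls-2.2: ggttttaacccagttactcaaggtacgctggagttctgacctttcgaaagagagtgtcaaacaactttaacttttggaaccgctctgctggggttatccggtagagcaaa

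Of the 4 peak lists on ce11, the optimal set holds 460 peaks that passed the irreproducible discovery rate (IDR) procedure, which weighs how alike peaks rank in the replicates. Single peaks of the set can still rank differently in the replicates, as at sls-2.4, or have no summit nearby in replicate 1, as at sls-2.9. The pooled list holds 30000 peaks, that of replicate 1 holds 2401 and that of replicate 2 holds 30000. These 3 lists include background by design, and the lowest signal is 38.9 in the optimal set but 11.5 in the pooled list. Signal is the authors' own value for a peak, made against a control, with no unit given. It serves to rank peaks within a list, and values from different lists are set side by side only to show where a peak recurs. Read depth is unknown, and nothing in the sources used here says how reads that match several gene copies were placed. The optimal set is the top of the pooled list by signal, so these lists are not independent of each other or of the replicates.

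In the optimal set, 7 of the 129 snRNA genes (5.43%) had a summit within 500 bp. The background for the same rule was 2.06% of all nuclear genes and 2.47% of protein-coding genes, although protein-coding genes have a median length of 2027 bp against 109 bp and therefore wider windows. Among other short genes, 26.8% of 612 tRNA genes and 14.5% of 346 snoRNA genes lay higher. Lower shares were those of 261 miRNA genes (4.21%) and of 15363 piRNA genes (0.0456%), which have a median length of 21 bp. The piRNA genes are part of all nuclear genes and lower the background share of 2.06%. By kind, 5 of 18 SL2 RNA genes (27.8%) and 2 of 23 genes of the W05B2.8 family had a summit. The SL2 RNA count includes sls-2.3, which shares the peak of sls-2.2, and sls-2.9, whose summit lies inside a tRNA gene. None of the 12 SL1 RNA genes, 10 SmY RNA genes, 19 genes of the Y57G11C.35 family, 13 of the sup-6 family, 12 of the F38E11.10 family, 5 of the C52E4.8 family and 17 ungrouped genes had one. The 7 genes share 6 peaks, and gene copies are not replicates, so the difference between kinds is given as a count with no test. Among the 460 strongest peaks of replicate 1 alone, 3 SL2 RNA genes and 1 gene of the W05B2.8 family had a summit, and among those of replicate 2 alone 4 and 2. W05B2.8 and sls-2.2 were found in both.

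In the lists with background the shares were larger, both for snRNA genes and for all nuclear genes. A pooled summit lay within 500 bp of 45 snRNA genes (34.9%) against 44.6% of all nuclear genes. A replicate 1 summit lay near 11 genes (8.53%) against 6.84%, and a replicate 2 summit near 51 genes (39.5%) against 44.7%. The shares in the pooled and replicate 2 lists are below those of all genes, and that of replicate 1 is near it. Here too piRNA genes lower the shares of all genes, with 19.6% in the pooled list, 0.924% in replicate 1 and 19.0% in replicate 2. The median pooled signal of the strongest summit was 17.2 at the 45 snRNA genes and 16.5 at all nuclear genes with a summit. Both replicates had a summit at 10 snRNA genes, though at some of these, such as sup-39, the peaks of the replicates did not overlap. Of the 129 genes, 69 had no summit in any list.

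**Figure D1:**
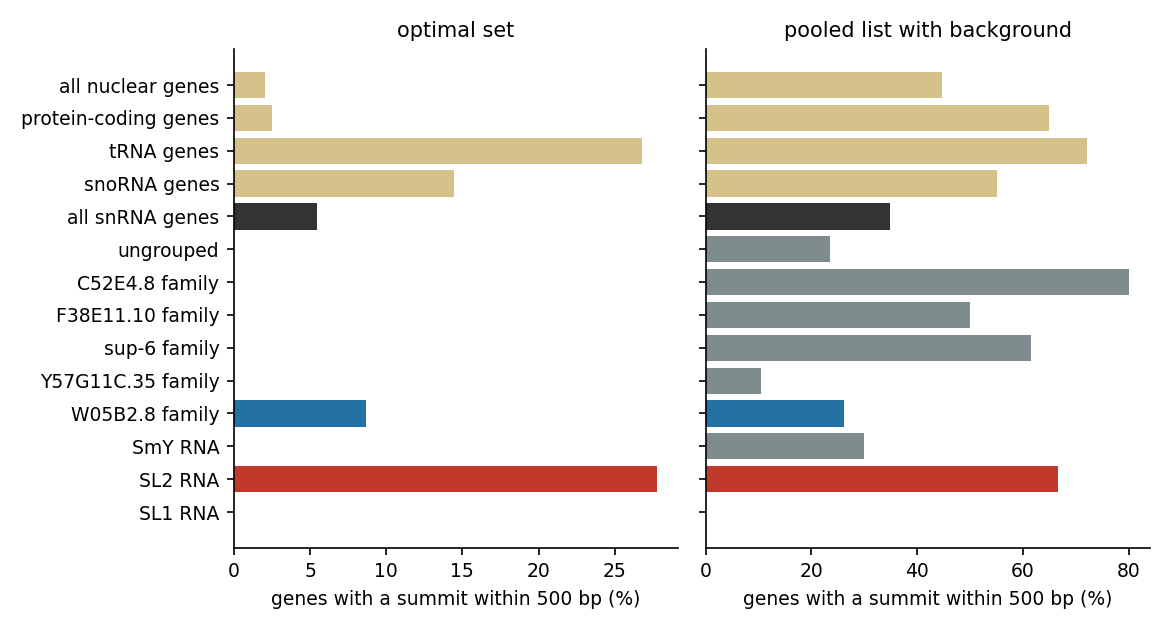
Share of genes with a summit within 500 bp (horizontal axes, percent) in the optimal set (left) and in the pooled list with background (right), for each kind of snRNA gene, all snRNA genes and other gene classes; families are named after a member. In the optimal set the bars of SL2 RNA genes (27.8%) and the W05B2.8 family (2 of 23 genes) are the ones above 0 among the kinds, while in the pooled list most kinds have a bar and SL1 RNA genes have none. The SL2 RNA bar includes sls-2.3, which shares the peak of sls-2.2, and sls-2.9, whose summit lies inside a tRNA gene.

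The strongest peak at an snRNA gene lay at W05B2.8 on chromosome III, from 10989679 to 10989780 on the plus strand, inside the dynein heavy chain gene dhc-4. Its signal was 85.1 in the optimal set, rank 152 of 460, with 41.5 in replicate 1 (rank 142) and 41.2 in replicate 2 (rank 195). The summit fell 1 bp inside the gene in the optimal set and in replicate 2, and 7 bp upstream in replicate 1. The peak thus stood high in both replicates and at the same end of the gene, after the CTATATAA shown above. The q-value column, by the format −log10 of a q-value, was 2.00 in the optimal set. Because the column falls below 0 at other peaks of the pooled list, it was read as a score only. It was higher, 2.09, at the peak of sls-2.2.

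The SL2 RNA genes sls-2.2 and sls-2.3 share the next peak. They lie on chromosome II, sls-2.2 from 5543598 to 5543707 on the plus strand and sls-2.3 from 5544164 to 5544273 on the minus strand, so their 3′ ends face each other. The peak had a signal of 75.2 (rank 184) in the optimal set, 39.0 (rank 155) in replicate 1 and 40.4 (rank 202) in replicate 2. Its summit lay 76 bp past the 5′ end of sls-2.2, inside that gene, and 490 bp downstream of sls-2.3. In replicate 2 the strongest summit within 500 bp of sls-2.3 was another one, with a signal of 18.3 (rank 1038), 317 bp downstream. Counted by the nearer gene, the peak belongs to sls-2.2, and sls-2.3 had none of its own in the optimal set.

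At sls-2.1, on chromosome II from 5844865 to 5844974 on the plus strand, the signal was 53.0 (rank 303), with 29.6 (rank 237) in replicate 1 and 22.9 (rank 512) in replicate 2. The summit of the optimal set lay 1 bp upstream of the 5′ end. At sls-2.4, on chromosome I from 4172206 to 4172315 on the plus strand, it was 48.6 (rank 335), with 15.2 (rank 1238) in replicate 1 and 34.4 (rank 252) in replicate 2. That summit lay 15 bp past the 5′ end. The replicate summits of sls-2.1 lay 7 bp past the 5′ end in replicate 1 and 108 bp past it, near the 3′ end, in replicate 2. Those of sls-2.4 lay 55 bp and 19 bp past the 5′ end. Both SL2 RNA genes thus had a summit inside the gene in each replicate, and the replicates ranked them differently.

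F54D8.7, the second gene of the W05B2.8 family, lies on chromosome III from 5080798 to 5080898 on the minus strand, in no protein-coding gene. Its signal was 44.0 (rank 391), with 17.7 (rank 684) in replicate 1 and 34.3 (rank 254) in replicate 2, and the summit lay 20 bp upstream. The replicate summits were 38 bp upstream in replicate 1 and 60 bp past the 5′ end in replicate 2. The peak was among the weaker ones of the optimal set, whose lowest signal was 38.9.

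The last gene, sls-2.9 on chromosome I from 13297877 to 13297985 on the plus strand, had a signal of 42.5 (rank 403) and 32.1 (rank 279) in replicate 2, and no summit within 500 bp in replicate 1. Its summit was 142 bp upstream and inside the tRNA gene M01E5.t1, which ends 132 bp from sls-2.9. This peak cannot be assigned to sls-2.9 rather than to the tRNA gene. Of the 7 genes it alone had a tRNA, snoRNA or rRNA gene within 500 bp, and none of the 7 had a protein-coding start that close.

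**Figure D2:**
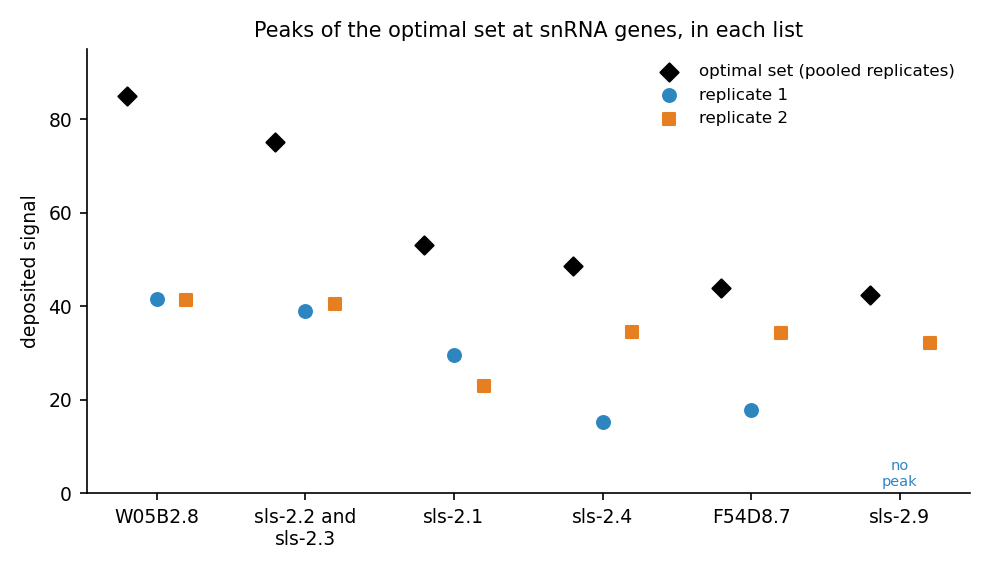
Deposited signal (vertical axis, linear, no unit) of the strongest summit within 500 bp of each snRNA gene with a peak of the optimal set; black diamonds are the optimal set, made from the pooled replicates, blue circles replicate 1 and orange squares replicate 2. sls-2.2 and sls-2.3 share a peak and are drawn once, with the values of sls-2.2. Each list has its own scale, so points of similar height in both replicates, as at W05B2.8 and sls-2.2, do not show equal strength. sls-2.9 has no peak in replicate 1.

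Just below the optimal set by signal stood C28A5.7, another gene of the W05B2.8 family, with a pooled signal of 37.4 (rank 503), a replicate 2 signal of 20.7 (rank 694) and no replicate 1 summit. Next came sup-6 with 30.9 (rank 798) and F38E11.10 with 30.5 (rank 843). By distance, the optimal summits nearest to further snRNA genes lay 1345 bp from F08G2.9 of the Y57G11C.35 family and 3560 bp from the ungrouped M163.13. The 500 bp limit thus runs through a gap, with sls-2.3 at 490 bp just inside it.

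Among the 18 SL2 RNA genes, 12 had a pooled summit, with a median signal of 22.6. All 18 have a sequence of their own. The 3 genes on chromosome II and 2 of the 4 on chromosome I had an optimal summit, and none of the 6 on chromosome III and 5 on chromosome IV did. Below the 5 genes described above stood sls-2.8, with a pooled signal of 24.5 (rank 2019) and 19.8 (rank 483) in replicate 1, but no summit in replicate 2. sls-2.16 had 20.7 (rank 4395) in the pooled list and 24.0 (rank 455) in replicate 2, but no summit in replicate 1. These absences differ in weight, since the replicate 1 list holds 2401 peaks down to a signal of 13.2. That of replicate 2 holds 30000 down to 6.66. The divergent pair sls-2.14 and sls-2.15 shared a pooled summit of 17.2 (rank 9460), which lay between them, upstream of both. The SL2 RNA genes without a summit in any list were 6.

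In the W05B2.8 family, 6 of 23 genes had a pooled summit, with signals from 16.0 to 85.1. Most of these genes resemble each other closely, with a median identity of 99.0% between pairs and 8 different sequences over 23 genes. The lowest identity of a pair was 68.5%. W05B2.8 is one of 14 identical copies. Of these copies 5 had a pooled summit, 1 a replicate 1 summit and 7 a replicate 2 summit, and W05B2.8 alone had an optimal one. The pooled signal of the other 4 was 37.4 at C28A5.7, 24.5 at R07E5.16, 19.5 at Y9C9A.111 and 16.0 at F54C8.9. In replicate 2 alone, F54C8.8 had 8.55, Y17G9A.90 had 11.2 and K09B11.15 had 9.54. The remaining copies, K09B11.11, K09B11.12, K09B11.13, K09B11.14, K09B11.16 and K09C6.12, had no summit in any list. Identical genes thus spanned the range from no summit to the strongest peak at any snRNA gene. Their windows differed in the share of short stretches found once in the genome, described below. In the K09B11 copies without a summit it ran from 62.6% at K09B11.12 to 74.0% at K09B11.13. It was 88.3% at K09C6.12, also without one. At copies with a pooled summit it ran from 82.5% at F54C8.9 to 94.5% at W05B2.8. K09B11.15, with a replicate 2 summit, had 70.7%. Whether this share bears on which copies had a summit was not tested.

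F54D8.7 is one of 3 identical copies, and neither T08B6.62 nor Y17G9A.85 had a summit in any list. Reads that fall wholly inside such a copy match every copy. No 50-base stretch inside W05B2.8 or F54D8.7 occurs once in the genome, while over the gene with 500 bp on each side 94.5% and 94.1% of them do. The peaks at these 2 genes therefore have flanks that can be placed, and how reads inside the gene were placed is not given in the sources used here. Over all kinds, 2 of the 44 genes with an identical copy elsewhere (4.55%) and 5 of the 85 with a sequence of their own (5.88%) had an optimal summit. In the pooled list the counts were 11 of 44 (25.0%) and 34 of 85 (40.0%). The 44 genes include all 12 SL1 RNA genes, which had no summit in any list and whose windows hold few unique stretches (median 6.77%). Copies and uniqueness of the window were not separated.

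**Figure D3:**
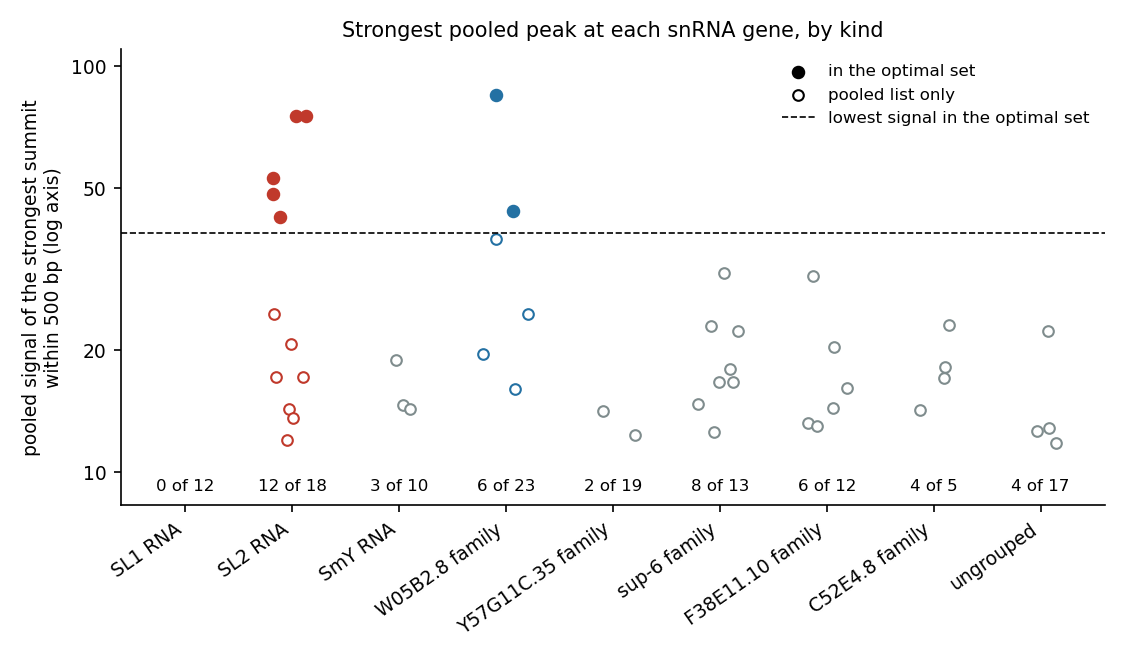
Pooled signal of the strongest summit within 500 bp of each snRNA gene (vertical axis, log scale, no unit) by kind; filled points are in the optimal set, open points are in the pooled list only, the dashed line is the lowest signal of the optimal set (38.9), and the numbers count genes with a pooled summit. Points above the line occur at SL2 RNA genes and the W05B2.8 family; SL1 RNA genes have no point.

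The other spliceosomal families had pooled peaks below the lowest signal of the optimal set. In the sup-6 family 8 of 13 genes had one, with a median of 17.3. The strongest were sup-6 with 30.9, H27M09.6 with 22.9 (rank 2747) and sup-39 with 22.3 (rank 3099). sup-6 was also found in replicate 1 with 21.7 (rank 395) and in replicate 2 with 15.7 (rank 2013), and its pooled summit lay 53 bp upstream. sup-39 had 13.9 (rank 1900) in replicate 1, with the summit inside the gene, and 15.2 (rank 2291) in replicate 2, with the summit 299 bp downstream. These replicate peaks do not overlap. The values of sup-39 are also those of mir-1831, which lies inside it. Outside the SL2 RNA genes and the W05B2.8 family, sup-6, sup-39 and mir-1831 were the genes with a summit in replicate 1.

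In the F38E11.10 family 6 of 12 genes had a pooled summit, with a median of 15.2. F38E11.10 led with 30.5, and had 25.4 (rank 404) in replicate 2 and no summit in replicate 1. Its identical copy F38E11.11 had 14.4 (rank 16968) in the pooled list and none in replicate 2. The next genes were Y69A2AR.36 with 20.4 (rank 4703) and C53B4.9 with 16.1 (rank 11957). In the C52E4.8 family 4 of 5 genes had a pooled summit, with 23.0 (rank 2684) at C52E4.8, 18.2 (rank 7543) at F10D2.13 and 17.1 (rank 9665) at K03B8.10. The C52E4.8 summit lay 89 bp upstream of the snRNA gene and 306 bp upstream of the start of snr-4, which encodes a core Sm protein, so it stands before both genes.

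The Y57G11C.35 family had 2 pooled summits over 19 genes, 14.2 (rank 17863) at Y57G11C.35 and 12.3 (rank 25733) at W07G1.8, neither with a counterpart in replicate 1. In replicate 2, 7 genes had one, with a median of 7.97, near the lowest signal of that list, 6.66. SmY RNA genes had 3 pooled summits over 10 genes, at smy-7 (18.9, rank 6481), smy-5 (14.6, rank 16117) and smy-6 (14.4, rank 17142). Of the 17 ungrouped genes 4 had one, led by mir-1831 with 22.3, C35D6.6 with 12.9 (rank 23114) and F56A12.5 with 12.7 (rank 24225).

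The SL1 RNA genes had no summit in any list. All 12 lie between 17118154 and 17132107 on chromosome V, in a stretch of 13954 bp, and 10 of them have an rRNA gene within 500 bp. No summit of the 4 lists lay in that stretch. The nearest was 15563 bp away in the pooled list and 6934 bp away in replicate 2, while a stretch of this length on chromosome V held 3.74 pooled summits on average. Of the 50-base stretches within 500 bp of an SL1 RNA gene, a median of 6.77% occur once in the genome, from 0% to 35.3%. The absence of summits therefore does not show that the factor was absent there.

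At the other kinds the medians ran from 82.2% in the Y57G11C.35 family to 100% at SmY RNA and ungrouped genes. Single genes lay far lower, down to 4.75% in the Y57G11C.35 family and 41.6% in the sup-6 family. The 60 snRNA genes with a summit in a list had a median of 94.7% and a lowest value of 70.7%. The 69 genes with none had a median of 87.8% and a lowest value of 0%. SmY RNA genes were almost wholly unique, with a lowest value of 99.6%, and had no optimal summit. The part of sequence repeats in which genes had a peak was not tested.

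**Figure D4:**
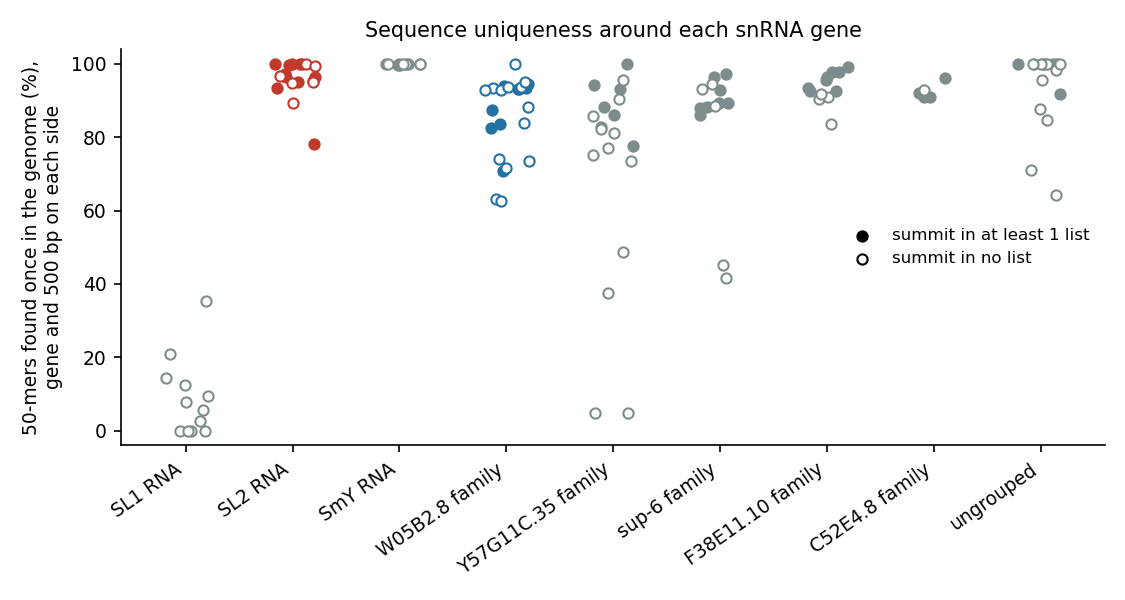
Share of 50-base stretches found once in the genome (vertical axis, percent) over each snRNA gene and 500 bp on each side, by kind; filled points are genes with a summit in at least 1 list and open points genes with none. SL1 RNA genes lie between 0% and 35.3%, and every filled point lies at or above 70.7%.

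The summit was then placed relative to the strand of each gene. In the optimal set the summit was upstream of 3 genes, inside 3 and downstream of 1, and 5 of the 7 lay within 100 bp of the 5′ end. In the pooled list it was upstream of 21 genes (46.7%), inside 12 (26.7%) and downstream of 12 (26.7%). By width, the windows of these 45 genes are 44.5% upstream, 10.9% gene and 44.5% downstream. Replicate 1 had 5 upstream, 4 inside and 2 downstream, and replicate 2 had 17, 13 and 21. Within 100 bp of the 5′ end lay 17 of 45 pooled summits, 9 of 11 replicate 1 summits and 15 of 51 replicate 2 summits. By kind, these were 7 of 12 pooled summits at SL2 RNA genes and 5 of 6 in the W05B2.8 family, but 1 of 8 in the sup-6 family and 0 of 6 in the F38E11.10 family. Summits within 100 bp of the 5′ end were not counted for other genes, so these counts have no background beside them. The 45 genes share 41 pooled summits, so pairs such as sls-2.14 and sls-2.15 count a summit for each gene.

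**Figure D5:**
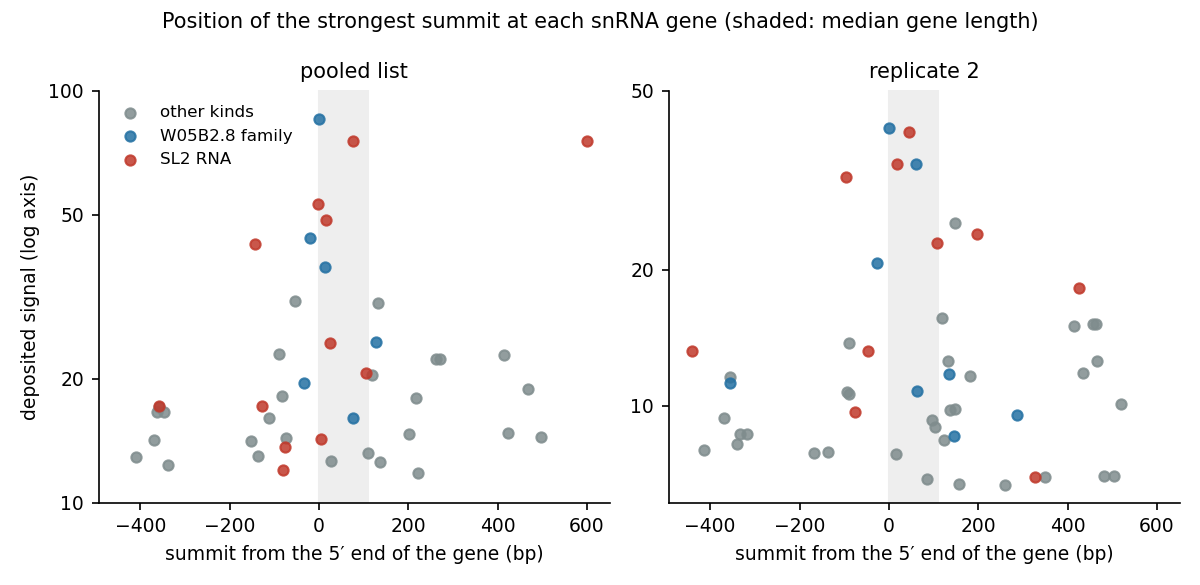
Position of the strongest summit (horizontal axis, bp from the annotated 5′ end, negative upstream) against its deposited signal (vertical axis, log scale, no unit) for each snRNA gene in the pooled list (left) and in replicate 2 (right); red is SL2 RNA, blue the W05B2.8 family, grey the other kinds, and the shaded band is the median gene length of 109 bp. The strongest pooled points lie at the 5′ end or inside the gene, apart from sls-2.3 at 599 bp, which shares the peak of sls-2.2, and sls-2.9, 142 bp upstream; the weak points spread over the window.

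The letters before the genes were counted in the 100 bases before the annotated 5′ end, on the strand of the gene. CGGAACCC was the most frequent run of 8 letters. It stood before 31 of 129 snRNA genes (24.0%) and before 67 of all 46890 nuclear genes (0.143%), at a median of 61 bp before the 5′ end, the region in which animal snRNA genes carry the proximal sequence element. It stood before 8 of 13 genes of the sup-6 family, 6 of 12 of the F38E11.10 family, 5 of 10 SmY RNA genes, 5 of 18 SL2 RNA genes, 5 of 23 of the W05B2.8 family and 2 of 5 of the C52E4.8 family, and before no SL1 RNA gene and no gene of the Y57G11C.35 family. Of the 31 genes with these letters, 2 had an optimal and 19 a pooled summit (61.3%). Of the 98 without, 5 had an optimal and 26 a pooled summit (26.5%). The genes without the letters include the SL1 RNA genes and the Y57G11C.35 family, whose windows hold fewer unique stretches. They also include the 17 ungrouped genes, whose windows have a median uniqueness of 100% and of which 4 had a pooled summit. The letters and the uniqueness of the window were not separated.

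In the W05B2.8 family, CTATATAA stood before 12 of 23 genes, 31 bp before the 5′ end at the median, and before 0.416% of nuclear genes. The shorter TATATA stood before 16 of 23 genes of the family and before 5.07% of nuclear genes, and TATAAA before 9 of 23 and 10.9%. No SL2 RNA gene had TATATA or TATAAA. Both W05B2.8 and F54D8.7 had CGGAACCC and CTATATAA together, as printed above. C28A5.7 and K09B11.12, identical to W05B2.8 within the gene, had CTATATAA without CGGAACCC, and C28A5.7 had a pooled summit while K09B11.12 had none. Their windows also differed in the share of stretches found once in the genome, 87.4% at C28A5.7 and 62.6% at K09B11.12. Of the 12 genes of the family with CTATATAA, 4 had a pooled summit, as did 2 of the 11 without. Of the 5 genes of the family with CGGAACCC, 2 had a pooled summit, W05B2.8 and F54D8.7, as did 4 of the 18 without.

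The 4 SL2 RNA genes sls-2.1, sls-2.2, sls-2.3 and sls-2.4 lacked CGGAACCC and instead shared TTGCCTCGAAA, 61 bp before the 5′ end. These letters are the last 11 of a run of 15 that the 4 genes share, and were chosen after their peaks were seen. They stood before 5 of 46890 nuclear genes. On both strands of the nuclear genome TTGCCTCGAAA occurred 85 times. An optimal summit lay within 500 bp of 3 of these matches, and of none of the 81 that were not beside an snRNA gene. The longest run shared by W05B2.8 and F54D8.7, GCGGAACCCA, chosen in the same way, occurred 182 times. An optimal summit lay within 500 bp of 4 of these matches, including 2 of the 176 that were not beside an snRNA gene.

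Letters known for MED-1 and for GATA factors were searched on both strands over the gene and 500 bp on each side. A MED site, AAGTATAC or GAGTATAC, lay near 4 of 129 snRNA genes and in 4.28% of 90415 stretches of 1109 bp that tile the nuclear genome. None of the 7 genes with an optimal summit had one. The GATA site TGATAA lay near 74 snRNA genes (57.4%) and in 65.0% of the stretches, and near 3 of the 7 genes, sls-2.1, sls-2.2 and sls-2.9. An absent match says only that these letters are not in the window.

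Protein-coding genes whose products make or bind snRNAs were looked up by the same rule. Of 55 listed genes 49 were matched, and 2 of them had an optimal summit (4.08%) beside 2.47% of protein-coding genes. They were snpc-3.4, which encodes a SNAP complex subunit, with a signal of 45.8 (rank 366) 47 bp upstream of the gene start, and ints-8, which encodes a subunit of the Integrator complex that cuts the 3′ ends of snRNAs, with 52.7 (rank 306) inside the gene, 6393 bp from its start. In the pooled list 36 of the 49 had a summit (73.5%) against 64.9% of protein-coding genes, among them 8 of 9 Sm and SMN genes and 3 of 8 genes of the SNAP complex and TATA-binding protein list. None of the 7 Lsm genes, 9 Sm and SMN genes and 14 snRNP protein genes matched had an optimal summit. In the pooled list 6 of the 7 Lsm genes and 10 of the 14 snRNP protein genes had one. No test was made of these counts.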

How the data were processed

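MED-1-eGFP was mapped by ChIP-seq in 2 biological replicates of 1 group. The authors deposited narrowPeak lists for each replicate, for the pooled replicates and for the optimal IDR set, per the deposited file lists of the samples. Each peak has a deposited signal, and the q-value column, −log10 by the format, was treated as a score because it falls below 0. The sources used here do not name the aligner, the peak caller, how reads were placed or the depth. The lists on ce11 were used, and those on ce10 were not used here.

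Genes came from Ensembl release 115 and symbols from RefSeq, with all 129 genes matched. For each gene the strongest summit within 500 bp was taken, and its position was read relative to the strand. Named genes are those with an optimal summit, the 3 strongest pooled summits of each kind, the 2 nearest on each side of the distance limit, identical copies of a gene with an optimal summit, and listed snRNA machinery genes with an optimal summit. sls-2.8, sls-2.14, sls-2.15, sls-2.16, F38E11.11 and snr-4 were named after their values were seen. Grouping unnamed genes into sequence families (at least 80% identity to another member over at least 80% of the length, at least 5 members) and the TTGCCTCGAAA letters were added after the files were seen. Genes and lists were chosen with earlier results of these data known. No test was made, since genes and copies are not replicates. The lookup was tested on simulated data. Python 3.11.15, numpy 2.4.6, pandas 2.3.3 and Biopython 1.88 were used.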

Additional observations from a re-analysis of the deposited data

How the results depend on the processing

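The number of snRNA genes with an optimal summit, 7, was 6 to 7 at distances of 200 or 1000 bp, with peak intervals in place of summits, with overlapping windows merged into loci, and over the 115 genes away from tRNA, snoRNA and rRNA genes. With the 460 strongest peaks of 1 replicate in place of the optimal set it ranged from 5 (without replicate 2) to 7 (without replicate 1). The 7 of replicate 2 include sls-2.16 and F38E11.10 and lack sls-2.1 and sls-2.3, and the 5 of replicate 1 include sup-6 and lack sls-2.4, sls-2.9 and F54D8.7. Without replicate 2, SL2 RNA genes went from 5 to 3 and the W05B2.8 family from 2 to 1. The number of snRNA genes was 3 in the stronger 230 peaks and 3 among peaks with a q-value column of at least 2, which hold fewer peaks. In both cases the genes were W05B2.8, sls-2.2 and sls-2.3, so the SL2 RNA genes left were those that share a single peak. The pooled count of 45 was 11 over the 2000 strongest peaks and 3 with a q-value column of at least 2, and the replicate 2 count of 51 was 14 over as many peaks as replicate 1 lists. The 12 pooled summits downstream became 6 at 200 bp and 25 at 1000 bp, by the width of the window. The median pooled signal of 17.2 was 10.7 without replicate 1 and 19.8 without replicate 2, on lists with their own scales. Of all alternatives, 54 values stayed within the limits used (1.5 times for counts) and 13 moved. For the median signal the limit was 6.43, the standard deviation of the medians of replicate 1 and replicate 2. Because it was made from those medians, it cannot judge how far they lie from 17.2. With 2 replicates and no read counts, no error can be set on a single signal, and a gene without a summit may lie below what these lists can show. No paired analysis was possible because the series has 1 group and the results come from no test.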
